A study of Mus musculus with 4 samples.

Results

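The regions described here are the Tfcp2l1 peaks with the most sequencing tags among those found in both repeats of a chromatin immunoprecipitation experiment (ChIP-seq) in mouse embryonic stem cells. A peak of the repeat 1 list was taken when it held at least 300 ChIP tags and overlapped, by 1 bp or more, a peak of the repeat 2 list that also held at least 300. Only the 19 autosomes were used, with tags as deposited and not scaled for depth. The rule found 1080 peaks, called high-tag peaks from here on, of 43258 autosomal peaks of repeat 1 that overlapped a peak of repeat 2, which is 2.5% of these shared peaks. The other 42178 shared peaks are the comparison throughout. The peaks were chosen by their tags in both repeats, so tags and the measures taken from the same comparison of ChIP with input (fold enrichment, score, FDR and length) are given as a description. Position along the genome, nearby genes and sequence were not used by the rule.

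The cells were wild type. Their medium held LIF at 1000 units/mL and both 2i inhibitors, CHIR99021 at 3 µM and PD0325901 at 1 µM, and no further treatment was given. CHIR99021 inhibits GSK3 and PD0325901 inhibits MEK, and with LIF they hold mouse embryonic stem cells in the naive state. The study had 4 libraries, 1 ChIP and 1 input library in each of 2 repeats, and the ChIP used a custom antibody raised to mouse Tfcp2l1. All libraries therefore share 1 cell type, 1 medium and 1 antibody, and no library without Tfcp2l1 was analysed here. The labels do not say whether the repeats were separate cultures, so differences between them may be technical.

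Tfcp2l1 belongs to the CP2 and Grainyhead family of transcription factors. In embryonic stem cells it acts downstream of LIF and Stat3 and helps to keep the naive state, and outside them it is known for a role in the kidney collecting duct and other epithelial ducts. CP2 factors bind DNA as multimers and recognise a short repeated site, CCAG or a close spelling of it, with a spacer in between. A peak of ChIP tags marks DNA that was pulled down more often than in the input, and its summit is the position with the highest pile-up.

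Sequence could be read where a summit fell in a RefSeq window around an annotated gene start (GRCm38.p6, 250 bases before to 50 after the start). High-tag summits of repeat 1 fell in 65 such windows, of 58 genes, 49 of them protein-coding. The CP2 motif, CCAG followed by any 6 bases and a second CCAG, searched on both strands, was in 13 of the 65 windows (20%), in 142 of 2111 windows with a summit of another shared peak (6.73%) and in 3.44% of all 32851 windows. When either CCAG could also read CCGG, which makes 4 spellings and was added after seeing the data, the counts were 30 of 65 (46.2%), 483 of 2111 (22.9%) and 8.37% of all windows. With summits of repeat 2, 12 of 64 windows held the first form and 27 of 64 one of the 4 spellings. The high-tag windows thus held the CP2 motif in a larger share than windows at weaker peaks, and these held it in a larger share than start windows in general.

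The 10 stretches that follow are shown because each carries the motif under a high-tag peak, 40 to 120 bp from the summit on the side of lower coordinates. They are those of the highest repeat 1 tag counts, 1 stretch a gene. Each reads 5′ to 3′ on the strand of its gene, ends before the start site, and has the 14 bases of the match in capitals. A match on the other strand reads CTGG or CCGG in place of CCAG or CCGG.
Ccdc87, chr19:4839236-4839315, + strand: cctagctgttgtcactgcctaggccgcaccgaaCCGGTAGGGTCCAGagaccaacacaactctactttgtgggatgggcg
Gm46560, chr16:31509102-31509181, + strand: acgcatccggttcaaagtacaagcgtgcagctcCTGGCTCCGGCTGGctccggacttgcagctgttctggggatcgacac
Arpc1b, chr5:145114084-145114163, + strand: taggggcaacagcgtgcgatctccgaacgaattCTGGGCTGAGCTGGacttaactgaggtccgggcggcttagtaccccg
1700012C14Rik, chr6:30460804-30460883, + strand: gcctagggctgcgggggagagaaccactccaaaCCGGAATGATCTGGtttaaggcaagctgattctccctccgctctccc
Ost4, chr5:30907882-30907961, - strand: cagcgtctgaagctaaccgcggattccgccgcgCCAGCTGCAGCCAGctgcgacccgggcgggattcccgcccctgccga
Tbrg1, chr9:37657334-37657413, - strand: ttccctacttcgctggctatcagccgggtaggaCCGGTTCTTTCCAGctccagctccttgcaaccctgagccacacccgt
Rbm26, chr14:105177315-105177393, - strand: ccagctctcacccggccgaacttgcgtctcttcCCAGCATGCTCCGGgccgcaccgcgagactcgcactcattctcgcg
Dab2ip, chr2:35691784-35691863, + strand: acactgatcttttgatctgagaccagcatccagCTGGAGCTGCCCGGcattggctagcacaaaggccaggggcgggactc
Slc16a9, chr10:70245094-70245173, + strand: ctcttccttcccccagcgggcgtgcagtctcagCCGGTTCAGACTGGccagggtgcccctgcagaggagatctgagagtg
Slc43a2, chr11:75531518-75531597, + strand: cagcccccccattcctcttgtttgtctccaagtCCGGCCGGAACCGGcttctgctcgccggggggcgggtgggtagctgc

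The repeat 1 summit lay 70.5 bp above the centre of the match at Ccdc87, 100.5 bp at Gm46560, 85.5 bp at Arpc1b, 73.5 bp at 1700012C14Rik and 48.5 bp at Ost4. At Tbrg1 it lay 81.5 bp above, at Rbm26 116.5 bp, at Dab2ip 67.5 bp, at Slc16a9 60.5 bp and at Slc43a2 67.5 bp. "Above" means at a higher coordinate, whichever strand the gene is on: Ost4, Tbrg1 and Rbm26 are on the minus strand and the rest on the plus strand. Further matches of the 4 spellings lie in the same window at Gm46560 and Tbrg1, which hold 2 in all, and at Slc43a2, which holds 3. Arpc1b encodes a subunit of the actin-nucleating Arp2/3 complex, Ost4 a subunit of the oligosaccharyltransferase that glycosylates proteins, and Slc16a9 and Slc43a2 are solute carriers, the latter of neutral amino acids. Gm46560 and 1700012C14Rik are long non-coding RNA genes. The peak at Ccdc87 held 667 tags in repeat 1 and 550 in repeat 2, and that at Gm46560 held 665 and 614. At Arpc1b the peak held 517 and 400 tags, and at Tbrg1 484 and 443.

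The same one-sided distance held for the whole set. Within 200 bp of a high-tag summit there were 36 matches of the 4 spellings at 26 peaks, and 28 of them lay at lower coordinates than the summit. Their median distance was 71.5 bp below the summit in repeat 1 and 78.5 bp in repeat 2, where 33 matches could be placed. For the other shared peaks the medians were 69.5 and 69 bp below, over 490 and 492 matches. Over all shared peaks in repeat 1 it was 66.5 bp for genes on the plus strand and 71.5 bp for genes on the minus strand. The offset thus followed genome coordinates and not the direction of the gene. What produced it was not tested, and distances between summits and gene ends below about 100 bp carry it.

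**Figure D1:**
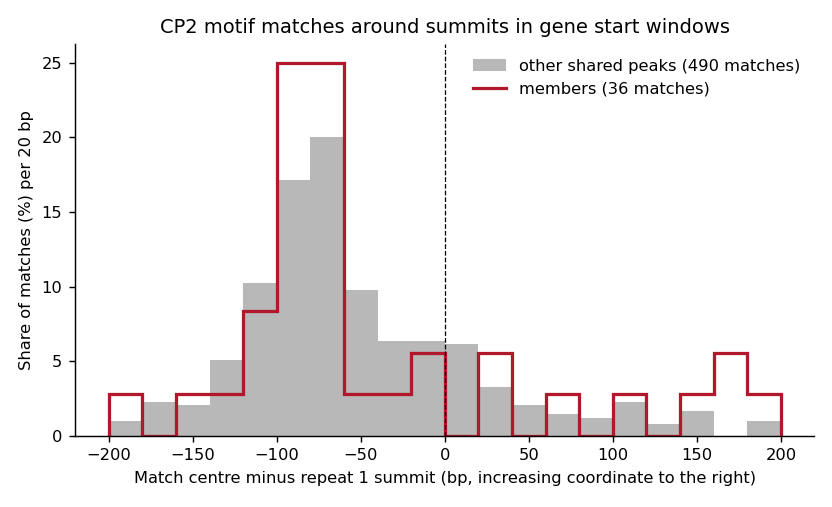
Position of CP2 matches (4 spellings) relative to the repeat 1 summit, in bp along the genome, as the share of matches per 20 bp bin, within 200 bp. The red line is the 36 matches of high-tag peaks ("members") and the grey area the 490 of other shared peaks. Both sets peak between 60 and 100 bp below the summit.

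Counted by peak, 16 of 47 high-tag peaks whose whole zone lay in a window had a match 40 to 120 bp below the summit, which is 34.0% (exact 95% interval 20.9 to 49.3%). Of the other shared peaks, 210 of 1452 did (14.5%, 12.7 to 16.4%). At the mirrored distance above the summit, the values were 1 of 27 (3.70%) and 21 of 1159 (1.81%). The zone was chosen after the offset had been seen. By the lower of the 2 tag counts, the share with a match below the summit was 8.74% for peaks under 50 tags, 11.8% for 50 to 99, 25% for 100 to 199 and 39.2% for 200 to 299 (28.4 to 50.9%). The share at 300 or more lay inside the interval of the class below it, so the rise with tags was not detectable past 200. With repeat 2 summits, 14 of 46 high-tag peaks (30.4%) and 189 of 1443 others (13.1%) had a match in the zone.

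Motifs of other stem cell factors were looked for in the same 65 windows, on both strands. The Stat motif TTCNNNGAA was in 6 windows (8.3% of all windows hold it), the Klf motif GGGTGTGG in 5 (3.56% of all), the Tcf motif CTTTGAA in 3 (5.14% of all), the Esrrb motif TCAAGGTCA in 1 (0.423% of all) and the Oct motif ATGCAAAT in none (1.74% of all). These counts are too small to set against the background. The loose CP2 form, which keeps only the first C and last G of each CCAG and so contains the forms above, was in 93.8% of the 65 windows, 90.9% of windows with another shared summit and 70.2% of all windows. Letters missing from a window say nothing about the rest of the peak, since the windows cover only part of it.

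A further pair is shown because its matches lie on the other side of the summit. Hspa1a and Hspa1b are near-identical genes of the inducible heat shock protein Hsp70, side by side on chromosome 17, and reads from one may have been placed on the other. Their stretches read as follows, with the match in capitals.
Hspa1a, chr17:34972298-34972377, - strand: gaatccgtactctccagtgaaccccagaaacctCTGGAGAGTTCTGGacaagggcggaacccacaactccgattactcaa
Hspa1b, chr17:34959380-34959459, - strand: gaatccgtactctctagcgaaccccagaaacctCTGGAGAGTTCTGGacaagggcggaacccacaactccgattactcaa

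The nearer of its matches lay 171.5 bp above the summit at Hspa1a, whose peak held 530 tags in repeat 1 and 385 in repeat 2, and the match at Hspa1b lay 160.5 bp above, with 433 and 347. The windows hold only a part of the zone 40 to 120 bp below these summits, so it was not fully read. The summits of the 2 repeats lay 281 bp apart at Hspa1a and 226 bp apart at Hspa1b.

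In repeat 1, 1655 of 56641 autosomal peaks had 300 tags or more (2.92%), and in repeat 2, 1261 of 50898 (2.48%). The ChIP libraries held 19353473 and 22555373 tags after the authors' duplicate filter. Of the 1655, 1649 overlapped a repeat 2 peak, and for 569 of these every overlapping repeat 2 peak held fewer than 300 tags. The 1080 high-tag peaks matched 1079 peaks of repeat 2, and 54 of them (5%) overlapped more than 1 repeat 2 peak of any size, against 1.58% of other shared peaks. Where several repeat 2 peaks matched, the one with most tags was used. The high-tag peaks covered 1.95 Mb, or 3.43% of the autosomal peak length of repeat 1, and held 11.3% of the tags in autosomal peaks of repeat 1 and 11.7% in repeat 2. That was 2.50% and 2.00% of all filtered ChIP tags.

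High-tag peaks held a median of 422 tags in repeat 1 (lowest 300, highest 1259) and 386.5 in repeat 2 (300 to 1218). Other shared peaks held medians of 57 and 56. Just inside the threshold were peaks at Spred2 (377 and 300 tags), Rhbdf1 (312 and 300), Tsc22d1 (404 and 300), Pced1b (422 and 300) and Gm46617 (413 and 300). Just outside were Mreg (312 and 299), Pla2g3 (299 and 324), Ism2 (330 and 299), Atrnl1 (299 and 325) and Samhd1 (319 and 299). No gap in tag counts separates these groups, and the threshold is a point on a continuous scale.

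**Figure D2:**
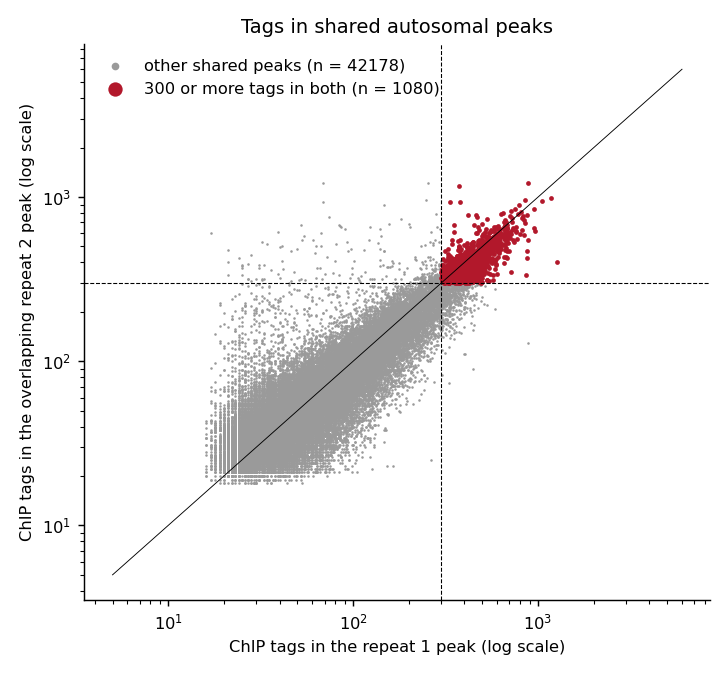
ChIP tags in each shared autosomal peak of repeat 1 (x axis, log scale) against the overlapping repeat 2 peak (y axis, log scale). Red points are the 1080 high-tag peaks, grey points the 42178 others, dashed lines mark 300 tags and the solid line equal tags. The red points run on from the grey ones without a gap.

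The first of the 10 peaks with the best mean rank of tags was inside Arrdc3, an arrestin-domain gene, at chr13:80884327-80886986. It held 1172 tags in repeat 1 and 990 in repeat 2. Its summit was 2.87 kb from the outermost start of the gene and 162 bp from the nearest annotated start site of a protein-coding gene. The next, at chr1:133856197-133858878, held 880 and 1218 tags and lay 40.3 kb beyond Optc, the gene of the matrix protein opticin, and 2787 bp outside the non-coding gene Gm31515. At chr15:78897115-78900711, 2025 bp from Sh3bp1, 1049 and 940 tags were counted, and at chr5:33534224-33538279, 64.7 kb from Fam53a, 953 and 844. These 4 peaks differ in where they lie. The first is inside a gene and near an annotated start site, and the third is close to a gene. Those at Optc and Fam53a are far from any protein-coding gene.

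The peak at chr19:5808057-5811492 held 847 and 958 tags and lay 7.64 kb from Malat1, an abundant nuclear non-coding RNA. A peak 66.95 kb from Hspa9, the mitochondrial Hsp70, at chr18:35020142-35023484, held 868 and 778. Ankrd35 held one inside the gene with 785 and 897. Chka, which encodes choline kinase, had one 8.94 kb upstream of its start with 809 and 808 tags. The peak 1.05 kb upstream of Bcl3, at chr7:19823169-19825353, held 827 and 771, and the peak inside Tead2 at chr7:45228706-45230335 held 774 and 792. Bcl3 is a nuclear IκB-family protein and a known target of LIF and Stat3, and Tead2 is a DNA-binding effector of the Hippo pathway. Of the 10, 6 held more tags in repeat 1 and 4 more in repeat 2. After division by the filtered tags of each library, only the peak near Optc held more in repeat 2, 1 of the 10.

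The authors' fold enrichment over input had a median of 101.67 in repeat 1 (8.69 to 190.35) and 72.99 in repeat 2 (7.14 to 141). Other shared peaks had medians of 14.98 and 11.4. In both repeats 108 high-tag peaks were at 100-fold or more. The 10 best by mean rank of fold lay at Sema4b (186 and 140.5-fold), Plekhh1 (178 and 128), Rbpj (177 and 128), Dync1h1 (178 and 122), Chka (168 and 127), Esrrb (168 and 127), Smchd1 (175 and 121), Ubald2 (169 and 123), Ralgps2 (161 and 129.9) and Tbx3 (175 and 118). The Tbx3 peak lay 360.0 kb from an end of the gene. Rbpj is the DNA-binding effector of Notch signalling, Esrrb and Tbx3 are transcription factors of the naive state, Smchd1 is a chromatin protein of X inactivation and Dync1h1 is the heavy chain of cytoplasmic dynein. Of these, Chka was also among the 10 best by tags.

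Choosing by tags, by fold or by density gave overlapping but not equal sets. Of the 1080 high-tag peaks, 753 were also among the 1080 best shared peaks by mean rank of fold, and 697 among the 1080 best by tags per kb. Across high-tag peaks, Spearman's rho of tags with fold was 0.42 in repeat 1 and 0.44 in repeat 2, and of tags with length 0.34 and 0.35, with each pair of measures taken from the same peak and library. For the other shared peaks the same values were 0.88 and 0.91, and 0.74 and 0.83. The threshold limits the range of tags of the high-tag peaks, so rho cannot be compared between the sets. The score was 3100 in both repeats for 564 high-tag peaks, so it does not rank them, and the FDR was 0% in both for 1064.

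Only 4 high-tag peaks were under 15-fold in both repeats, and no other was under 30-fold in both. The peak at chr2:181917208-181919583, 223 bp from the non-coding gene Gm40034, held 717 and 817 tags at 8.69-fold and 7.14-fold. The peak at chr11:88967632-88969674, 1.79 kb upstream of Elobl, held 364 and 322 at 8.84-fold and 8.37-fold. The remaining pair lay inside Pisd-ps2 (chr17:3083378-3084718, 375 and 1165 tags, 14.1-fold and 7.55-fold) and inside Pisd-ps1 (chr11:3121854-3124785, 405 and 423 tags, 13.5-fold and 12.4-fold), transcribed pseudogenes of the same parent gene. By the definition of the fold, so many tags at so low a fold go with a high local background. How reads were divided among the pseudogene copies was not tested. The limit of 15-fold was chosen after seeing the values. By the higher of its 2 folds, the next lowest was a peak inside Rex2 at 31.0-fold and 25.4-fold. By the mean of the 2 folds it was the peak in Tmem51, at 31.8-fold and 16.7-fold.

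**Figure D3:**
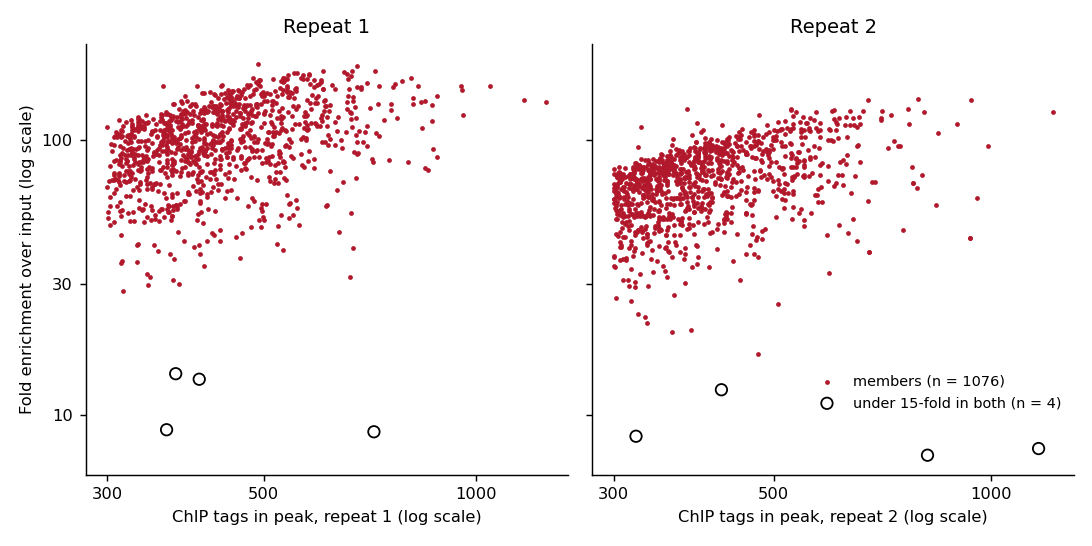
ChIP tags (x axis, log scale) against the authors' fold enrichment (y axis, log scale) for the 1080 high-tag peaks, in repeat 1 on the left and repeat 2 on the right. Open circles are the 4 peaks under 15-fold in both repeats. In repeat 2 the highest of them is at 12.4-fold, and the peak in Tmem51 lies close above it at 16.7-fold.

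High-tag peaks were longer, with medians of 1629 bp in repeat 1 (753 to 7137) and 1606.5 bp in repeat 2 (873 to 6044), against 974 and 987 bp for other shared peaks. They were also denser, with medians of 266 and 244 tags per kb against 56.6 and 54.9. They were thus both longer and denser than other shared peaks. The longest was in Tmem51, 7137 bp with 664 and 476 tags, followed by one 4.13 kb beyond Gadd45b, a stress-response gene, of 6486 bp with 670 and 486 tags, and one 51.7 kb upstream of Ssbp3 of 6183 bp with 956 and 646. The shortest was 753 bp long with 425 and 375 tags, 100.2 kb from Kdr, the gene of a VEGF receptor. The next were 769 bp near Tepp with 505 and 379 tags and 771 bp near Cnn3 with 324 and 483.

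Between repeats, the median ratio of repeat 2 to repeat 1 tags was 0.932 ± 0.193 (SD over 1080 peaks), and 0.800 after division by the filtered tags of each library. For the other shared peaks it was 0.978, and 0.839 so scaled. Scaled, 994 high-tag peaks (92.0%) had more tags in repeat 1, against 69.6% of the others. Fold enrichment was also lower in repeat 2, with the medians given above. Summits were close: 1020 of 1080 pairs (94.4%) lay within 100 bp, against 88.1% of other shared peaks, with medians of 15 and 29 bp, and 28 pairs lay more than 500 bp apart. Spearman's rho between repeats over high-tag peaks was 0.65 for tags and 0.69 for fold, on a range of tags limited by the threshold.

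The ratio ran from 0.320 to 3.11. The lowest was a peak inside Tafa4, with 1259 tags in repeat 1, the most of any high-tag peak, and 403 in repeat 2, at 137-fold and 63.7-fold. Low ratios followed at Ptprn2 (857 and 333 tags), A4galt (716 and 351), Kdm8 (868 and 428) and Fam102a (871 and 470). The highest were at Pisd-ps2 (375 and 1165), at Zfp600 (336 and 935, and 378 and 935), at Zfp978 (350 and 678) and at Cmtm7 (419 and 779). Both Zfp600 peaks matched the same repeat 2 peak of 5931 bp, so its tags were counted for each. The same held at Zfp978, where a further high-tag peak of 450 tags matched the repeat 2 peak of 678. At Cmtm7 a further one of 464 tags matched the repeat 2 peak of 779. These ratios therefore set a part of a region in repeat 1 against a wider part in repeat 2.

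Several of the high ratios lay among zinc finger genes on chromosome 4. From chr4:145675041 to 147642733 lay 14 high-tag peaks, at Zfp980, Zfp600, Rex2, Zfp988, Zfp978, Zfp985 and Zfp979, which matched 12 repeat 2 peaks. At Zfp600 and at Zfp978 a pair of the 14 shared a repeat 2 peak, whose tags were counted for each of the pair. The 14 are compared below with that limit. They held 303 to 492 tags in repeat 1 and 328 to 935 in repeat 2, and 12 of 14 held more tags in repeat 2, against 335 of 1066 high-tag peaks elsewhere (31.4%). Folds ran from 31.0 at Rex2 to 79.2 at Zfp980 in repeat 1. Scaled to the filtered tags, 9 of 14 held more in repeat 2, against 77 of 1066 elsewhere (7.22%). The genes belong to a family of related zinc finger genes, and how reads were divided among them was not tested. The region was chosen after its values were seen.

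Distance to genes was measured from the repeat 1 summit to the ends of protein-coding genes. Of the high-tag peaks 151 (13.98%, exact 95% interval 11.97 to 16.2%) lay within 1 kb of a gene end, against 14.0% of all shared peaks, and 592 (54.8%, 51.8 to 57.8%) lay inside a gene, against 55.9%. Neither share differed from the background by more than counting error. Within 10 kb of a gene end lay 536 (49.6%, 46.6 to 52.7%), against 44.9% of all shared peaks and 44.8% of the others. Beyond 100 kb lay 62 (5.74%, 4.43 to 7.30%), against 9.83% of all shared peaks and 9.93% of the others. High-tag peaks were thus more often within 10 kb and less often beyond 100 kb than other shared peaks, with intervals that do not overlap, and they were not closer than the rest at gene ends themselves. The intervals cover counting error only and treat peaks as independent, which neighbouring peaks are not.

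Where the annotation gave a start site (1042 high-tag peaks, none on chromosome 18), 129 (12.4%, 10.4 to 14.5%) lay within 1 kb of a start, against 10.9% of all shared peaks. Within 10 kb of a start lay 381 (36.6%, 33.6 to 39.6%), against 31.2%, and within 1 kb of a 3′ end 27 (2.59%), against 2.81%. The peaks within 1 kb of a start had medians of 437 and 385 tags and of 107-fold and 74.7-fold. The 62 peaks beyond 100 kb had medians of 408 and 379 tags and of 103-fold and 75.9-fold. The rule limits the tags of both sets from below, so these medians are a description only.

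Across classes of the lower tag count, the share beyond 100 kb was 13.4% for peaks under 30 tags, 10.3% for 30 to 49, 8.59% for 50 to 99, 7.86% for 100 to 199, 6.56% for 200 to 299, 6.31% for 300 to 499 and 2.48% (0.681 to 6.24%, 4 of 161 peaks) for 500 or more. The share within 10 kb rose from 40.05% under 30 tags to 50.4% at 200 to 299, and was 48.9% at 300 to 499 and 54.0% (46.0 to 61.9%) at 500 or more. The share within 1 kb of a start was 8.28% under 30 tags and 13.9% at 200 to 299, and above that it was 12.7% and 10.6%. Most of the shift in position with tags thus took place below the threshold of 300, and the classes on either side of it had overlapping intervals.

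**Figure D4:**
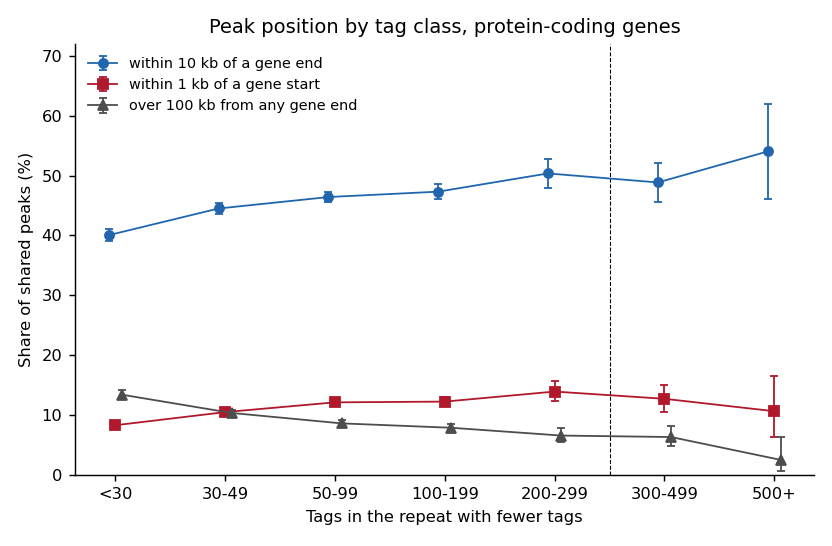
Share of shared autosomal peaks (y axis, percent) in each class of the lower of the 2 tag counts (x axis), for 3 positions relative to protein-coding genes. Bars are exact 95% binomial intervals and the dashed line marks 300 tags. The share over 100 kb from any gene end falls from 13.4% to 2.48%.

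Of the 5 high-tag peaks farthest from any protein-coding gene end, all held fewer tags in repeat 2 than the median high-tag peak. In repeat 1, those at Pde4d and Manea held more than the median of 422. The farthest lay 1108 kb beyond Hace1, a ubiquitin ligase gene, at chr10:46819176-46820581 with 328 and 335 tags at 88.9-fold and 54.55-fold. A peak deep inside Pde4d, a cAMP phosphodiesterase gene, lay 606 kb from either end with 438 and 320 tags at 113-fold and 73.8-fold. The other 3 were 598 kb from Manea (444 and 353 tags), 538 kb from Wac (368 and 323) and 445 kb from an end of Sox5, inside that gene (325 and 316).

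High-tag peaks had more neighbours than other shared peaks. Another shared peak of any size lay within 10 kb of 811 high-tag summits (75.1%, 72.4 to 77.6%), against 58.9% of the others, and within 50 kb of 96.5% against 90.1%. Another high-tag peak lay within 10 kb of 73 (6.76%, 5.34 to 8.42%) and within 50 kb of 233 (21.6%, 19.2 to 24.1%). Other shared peaks had a high-tag peak within 10 kb in 3.96% and within 50 kb in 13.6%. A wide domain can be called as several peaks, and its part in these shares was not tested. With steps of at most 50 kb the 233 formed 103 runs, mostly pairs, and 6 runs had 4 or 5 peaks.

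The 2 runs of 5 lay on chromosomes 12 and 19. On chromosome 12, from 86867157 to 86933340, peaks near Irf2bpl and Cipc, a regulator of the circadian clock, held 359 and 376, 475 and 372, 461 and 446, 614 and 551, and 347 and 342 tags in repeats 1 and 2. On chromosome 19, from 5803034 to 5850877, peaks around the nuclear non-coding RNA genes Malat1 and Neat1 held 498 and 370, 435 and 349, 847 and 958, 314 and 303, and 479 and 327. The first 3 of these lay 1.07, 3.51 and 7.64 kb from Malat1 and the fourth 6.53 kb from Neat1. In each run 1 peak held more than 500 tags in both repeats and the other 4 held fewer in both.

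Runs of 4 lay near Hes1, Ccnd3, Spint1 and Zfp978. Hes1 encodes a transcriptional repressor induced by Notch, and the run from chr16:30131716 to 30216622 held 533 and 480, 632 and 790, 333 and 315, and 443 and 451 tags. Its middle pair lay inside the non-coding gene Gm26562. The run from AI661453 through Taf8 to Ccnd3, a D-type cyclin gene, held 701 and 564, 415 and 341, 467 and 358, and 487 and 463. At Spint1, the gene of an epithelial protease inhibitor, peaks at Ppp1r14d, Spint1, Rhov and Vps18 held 658 and 657, 677 and 471, 327 and 360, and 461 and 346.

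The share of shared peaks that were high varied between chromosomes, beside 24.97 per 1000 over all autosomes. No interval was computed by chromosome, so whether they differed beyond counting error was not tested. The share ran from 17.0 per 1000 shared peaks on chromosome 13 (33 of 1936) to 30.5 on chromosome 11 (105 of 3443), and chromosome 4 followed with 29.4 (96 of 3267). Chromosome 4 includes the 14 peaks at zinc finger genes.

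Of 20661 autosomal protein-coding genes 744 (3.6%) had a high-tag summit within 10 kb of an end, while 62.2% had some shared summit there. Of these genes 35 had more than 1. Counting the gene body as well, 1006 genes (4.87%) had one. Rnf220, which encodes a ubiquitin ligase, held 4 inside its 226 kb, with 461 and 337, 352 and 392, 384 and 340, and 356 and 317 tags. Sp2, a transcription factor gene of only 29.6 kb, held 3, with 598 and 469, 470 and 438, and 386 and 346. Dst and Macf1, large genes of related cytoskeletal linker proteins, held 3 each, with 366 to 532 tags in repeat 1 at Dst and 364 to 411 at Macf1. Long genes can hold more peaks, and no correction for length was made.

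Genes of 19 lists were looked up, chosen with earlier results of these data known, so their counts are a description. The background for every list is the 3.6% of all protein-coding genes with a high-tag peak near an end. For a shared peak of any size it is 62.2%. In 16 lists at least 1 gene had a high-tag peak within 10 kb of an end, and in 3 none had. Of the naive pluripotency genes 5 of 21 had one, beside 3.6% of all genes, and 21 of 21 had a shared peak of any size, beside 62.2% of all. Nanog, the homeodomain factor, had the strongest, 4.73 kb upstream of its start at chr6:122702113-122703708 with 726 and 748 tags at 135-fold and 95.4-fold. Tet2 had one with 552 and 342, Tbx3 one inside the gene with 460 and 339, and Fgf4, the ligand that drives exit from the naive state, one 2.44 kb upstream with 417 and 319. Scaled to the filtered tags of each library, the ratio of repeat 2 to repeat 1 was 0.884 at Nanog, 0.532 at Tet2, 0.632 at this Tbx3 peak and 0.656 at Fgf4.

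Esrrb, a nuclear receptor gene of the same list, had 3 high-tag peaks, all inside the gene and more than 10 kb from its ends, so it is not among the 5. They held 395 and 382, 426 and 387, and 569 and 536 tags at 75.4-fold and 56.1-fold, 85.8-fold and 64.0-fold, and 168-fold and 127-fold. The pair at the higher coordinates lay 19.6 and 17.0 kb from the end of the gene. Of general pluripotency genes 2 of 11 had a high-tag peak near an end. Foxd3, a forkhead repressor, had one 2.47 kb upstream with 663 and 509 tags, and Tdgf1, the Nodal co-receptor, one 1.09 kb upstream with 499 and 449.

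Signalling genes came next, ordered from LIF to FGF, Wnt and Notch. In the LIF and Stat3 list a high-tag peak was near 2 of 15 genes, Bcl3 as above and Socs3, the feedback inhibitor of the pathway, with 358 and 303 tags. Of 17 FGF and ERK feedback genes 2 had one: Etv4, an ETS factor induced by ERK, with 729 and 545, and Dusp6, the phosphatase of ERK, 23 bp before its start with 347 and 322. Inside Spred2 and Etv5, and farther than 10 kb from their ends, lay peaks with 377 and 300 and with 590 and 392 tags. Of 17 Wnt and beta-catenin genes only Cdx1, a homeobox gene, had one, with 444 and 402, which is 5.88% of the list.

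In the Notch pathway 2 of 14 genes had a high-tag peak near an end. At Rbpj, the DNA-binding effector, it lay 32 bp inside an end of the gene at chr5:53554110-53557620, with 651 and 707 tags. At Hes1, a target of the pathway, it lay 1.98 kb outside with 536 and 518. Inside Maml1, a coactivator of Rbpj, a peak 11.6 kb from an end held 700 and 469. Near an end the share of all protein-coding genes was 3.6%. With the gene body counted, 3 of the 14 had one, beside 4.87% of all protein-coding genes, and the rest of the list had none. The peaks named here held 469 to 707 tags in each repeat.

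Of 17 cell cycle genes 3 had one: Ccnd3 (487 and 463 tags), Ccnd2, another D-type cyclin (470 and 422), and Trp53, the tumour suppressor p53 (404 and 396). Of 16 genes of DNA methylation and chromatin 4 had one. Tet1, which oxidises methylated cytosine, had 625 and 638 tags 8.26 kb upstream of its start, and Tet2, of the same family, is given above. Kdm2b, which brings Polycomb proteins to CpG islands, had 401 and 416, and Kdm1a, a demethylase of histone H3, had 328 and 380. Apart from Tet2, the repeats differed by fewer than 100 tags at each of these cell cycle and chromatin genes.

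Of 16 epithelial genes 3 had one, among them Spint1 and Cldn4. Spint1 had a pair, 266 bp and 7004 bp upstream of its start, with 677 and 471 and with 658 and 657 tags. Cldn4, a claudin of tight junctions, had one with 679 and 609 tags, 3095 bp outside the gene and inside Mettl27. The protease that Spint1 inhibits, St14, had one inside the gene with 665 and 675, 12.8 kb from an end. Of 14 kidney collecting duct genes 2 had one: Atp6v1b1, a proton pump subunit, with 618 and 551, and Elf3, an epithelial ETS factor, with 407 and 370. Of the 6 autosomal genes of the CP2 and Grainyhead family none had a high-tag peak near an end, while all 6 had a smaller shared peak.

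Genes of later cell fates were also near high-tag peaks. Of 14 formative and primed epiblast genes 4 had one: Etv4, Foxd3, Nodal, a TGF-beta family ligand (428 and 397 tags), and Otx2, a homeobox gene (405 and 377). Of 12 trophoblast genes 2 had one, the keratins Krt8 (365 and 348) and Krt7 (363 and 317), and inside Tead4 lay one with 437 and 424. Of 13 neural genes 2 had one, Olig2 (357 and 386) and Sox1 (355 and 317). Of 14 endoderm genes none had one within 10 kb and 11 had a smaller shared peak, beside 3.6% and 62.2% of all genes. Outside that limit, 17.9 kb beyond Gsc of the same list, lay a high-tag peak with 758 and 654 tags. Apart from those at Etv4, Foxd3 and Gsc, these peaks held fewer than 450 tags in each repeat.

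Of 15 glycolysis genes 3 had one: Aldoa, aldolase A, with 697 and 570 tags, Slc2a1, a glucose transporter, with 487 and 424, and Gapdh with 300 and 351. Hk1, hexokinase 1, held 3 inside the gene, of 666 and 577, 522 and 406, and 361 and 306 tags, all over 10 kb from its ends. Housekeeping genes had one in 2 of 11, among them Gapdh. Of 12 fibroblast and feeder cell genes Col1a1 had one (413 and 351), and 5 of 12 had any shared peak. The peak lay 5.48 kb outside Col1a1, and its nearest protein-coding gene was Sgca. Of 15 genes of differentiated liver, blood, muscle and neuron none had one and 7 had any shared peak, so 46.7% of that list had one beside 62.2% of all genes. Housekeeping genes thus had high-tag peaks in 18.2% of the list, close to the 18.8% of epithelial genes and the 18.2% of general pluripotency genes. The share was 25% for chromatin, 20% for glycolysis, 17.6% for cell cycle and 16.7% for trophoblast genes. It was 15.4% for neural, 14.3% for kidney, 13.3% for LIF and 11.8% for FGF genes, beside 3.6% of all. Across these lists 69.2% (neural) to 100% (kidney and trophoblast) of genes had a shared peak of any size, beside 62.2% of all. Gene lists of 6 to 21 genes do not allow finer comparison.

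**Figure D5:**
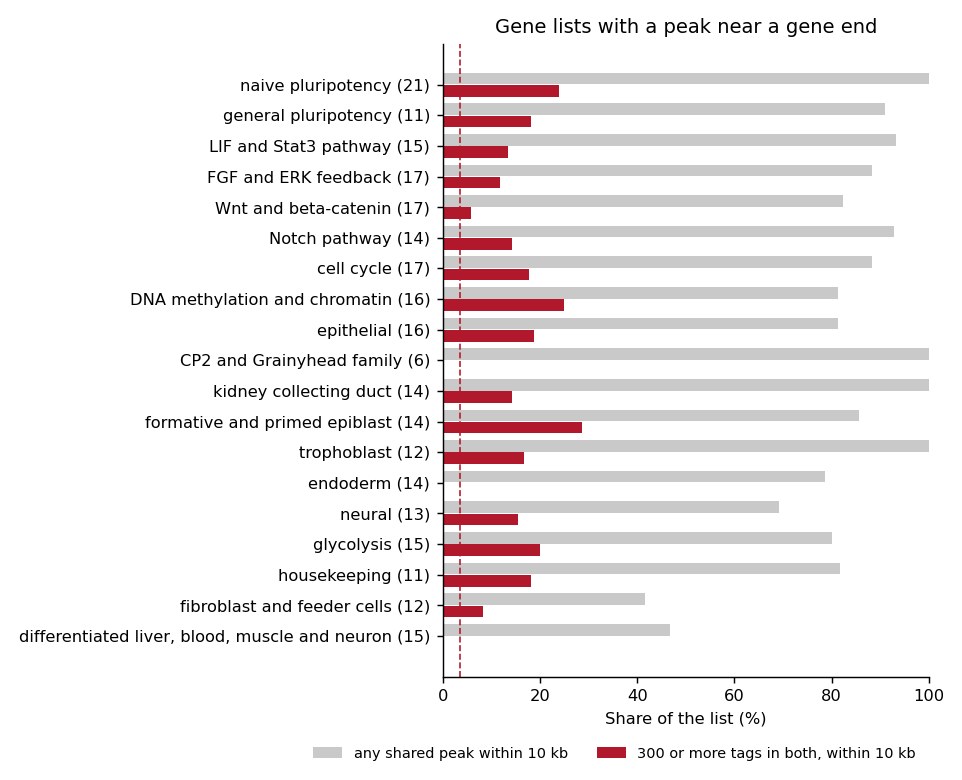
Share of each gene list (x axis, percent) with a peak summit within 10 kb of a gene end. Red bars count high-tag peaks and grey bars any shared peak, the number of autosomal genes is in brackets, and the dashed line is the 3.6% of all protein-coding genes with a high-tag peak. The CP2 and Grainyhead, endoderm and differentiated lists have no red bar.

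Among microRNA genes, 20 of 919 autosomal hairpins had a high-tag summit within 10 kb, beside 3.6% of protein-coding genes with one within 10 kb of an end. Within 20 kb 46 had one, and several of these belong to the cluster from Mir290a to Mir295. The share of hairpins near any shared peak was not computed, so the counts are a description. Upstream of the cluster from Mir290a to Mir295, which is highly active in embryonic stem cells, lay a pair of peaks. The nearer one, at chr7:3206119-3207772, was 12.1 kb from Mir290a with 342 and 346 tags at 29.7-fold and 47.1-fold, and the other, at chr7:3200957-3202297, was 17.1 kb away with 413 and 472 tags at 115-fold and 96.5-fold. The cluster of Mir183, Mir96 and Mir182 had one 8.01 kb from Mir183, at chr6:30177134-30178962 with 528 and 405. Single genes with near peaks were Mir210, which is induced by low oxygen, at 1.52 kb (576 and 531 tags), Mir22 at 1.99 kb (616 and 467) and Mir2139 at 0.209 kb (453 and 408). Of both clusters 8 mature sequences are shown, with the seed (bases 2 to 8) in capitals, to set those with a shared or similar seed side by side: miR-291a-3p, miR-294-3p and miR-295-3p share 1 seed, and miR-290a-3p and miR-291b-3p each have another.
miR-291a-3p: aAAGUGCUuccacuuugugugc
miR-294-3p: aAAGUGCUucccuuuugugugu
miR-295-3p: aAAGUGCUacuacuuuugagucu
miR-290a-3p: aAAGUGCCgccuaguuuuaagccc
miR-291b-3p: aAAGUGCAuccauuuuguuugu
miR-182-5p: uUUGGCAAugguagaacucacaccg
miR-96-5p: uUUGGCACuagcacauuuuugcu
miR-183-5p: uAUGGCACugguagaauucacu

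The last 3 sequences are those of the cluster of Mir183, Mir96 and Mir182, and no seed is shared among them. All 8 sequences are from RefSeq on GRCm38.p6. Whether the peaks act on these genes was not measured.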

How the data were processed

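Binding of Tfcp2l1 in the stem cells was measured by sequencing 1 ChIP and 1 input library in each of 2 repeats. The authors deposited 1 peak list per repeat, called with MACS 1.4.1 per the file headers for the ChIP library against the input of the same repeat and not pooled, at a p-value threshold of 1e-05, with a tag size of 35 bp, a fragment length of 200 bp and scaling of the smaller library to the larger. CASAVA 1.8.2 is named in the submitters' processing notes, and the name of an aligner was not given in the sources used here. Tag counts deposited by the authors are whole ChIP tags per peak, not normalized. Per the file headers the deposited score comes from the peak's p-value on a log10 scale times -10. The deposited fold enrichment is a ratio to the local background. The deposited FDR is a percent. Fold, score and FDR of each peak are the authors' values. Filtered ChIP tags were 19353473 and 22555373 per the file headers, and depth is behind every tag count, so raw tags are not scaled between repeats, and values divided by these totals are given only where the text says so.

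Although mm9 is named in the processing notes, GRCm38 was used, because Y chromosome peaks extend to 90.8 Mb and because summits fall at gene starts of that build. Genes (20661 autosomal protein-coding) and sequences came from RefSeq tables of GRCm38.p6, which hold no start windows for chromosome 18. Of 21883 protein-coding genes on all chromosomes, 17491 have a strand there, so for the rest distance is to an end of unknown kind. Exons, introns and UTRs were not told apart.

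Peaks of repeat 1 were matched to those of repeat 2 by overlap of 1 bp or more, with Python 3.11.15, pandas 2.3.3, numpy 2.4.6, scipy 1.17.1 and matplotlib 3.10.9, after the overlap and distance functions had been tested on simulated data. Intervals are exact (Clopper-Pearson) 95% binomial intervals for counting error only. With 2 lists and no group comparison no test was made. The members, gene lists and motifs were chosen with earlier results of these data known. Peaks named were the 10 best by mean rank of tags and of fold, the 5 of lowest fold, the 3 longest and shortest, the 5 of highest and lowest ratio, the 5 farthest from genes and the 5 on each side of the threshold. Genes named were up to 4 per list with a high-tag peak, and others are said to be chosen after seeing values or come from runs and counts. Runs, genes of most peaks, microRNA genes, Esrrb, Hk1 and genes with a peak inside only were added after the values were seen. Some genes with a high-tag peak are counted in their lists but not reported here by name.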

Additional observations from a re-analysis of the deposited data

How the results depend on the processing

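No paired analysis was possible because the results come from no test and each input library entered only through the authors' peak call of its own repeat. Under alternative settings 94 values of 9 results were computed, 81 planned and 13 added after seeing the data. Of these, 76 stayed within the interval, the SD or 1.5 times the count of the value reported, and 18 moved. The results are counts, shares and a ratio, and a change of direction was not assessed. With 200 tags as the threshold there were 2849 peaks near 1878 genes, and with 400 tags 402 peaks near 295 genes, 51.5% of the peaks inside a gene. From a single list, the number of peaks was 1261 to 1655, of genes 841 to 1235, and the shares were 12.7 to 18.4% within 1 kb and 49.1 to 53.1% within 10 kb of a gene end. The higher of each 2 values is that of the repeat 1 list. Of all shared peaks 14.0% lay within 1 kb and 44.9% within 10 kb. Between the single lists, the share within 1 kb was above that of all shared peaks only in the repeat 1 list. With 200 tags in both lists it was 15.7% (14.4 to 17.1%), and with 400 tags 13.9%. For the same number of peaks chosen by fold it was 15.6%, and by tags per kb 14.7%. With the repeat 2 threshold scaled to depth it was 13.4%. With all annotated genes in place of protein-coding ones, 1205 genes were near a high-tag peak, and the shares were 19.4% within 1 kb, 66.0% within 10 kb, 65.2% inside a gene and 0.463% beyond 100 kb, beside 19.6%, 62.0%, 64.6% and 2.08% of other shared peaks. Measured to the start only, 36.6% lay within 10 kb. The CP2 motif with CCAG on both sides alone was 40 to 120 bp below the summit at 8.51% of high-tag peaks and 4.68% of others. The same form was in 9.84% of start windows that a high-tag peak overlapped anywhere, and 1 of the 4 spellings in 46.2% of windows with a summit. Choosing the same number of peaks by density or by fold keeps the number by construction. Depth sets the tags, and with the repeat 2 threshold scaled to depth 738 peaks met the rule. Without the 4 peaks under 15-fold, added after seeing the data, 741 genes were near one.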

Other observations

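Peaks with 300 tags or more in 1 repeat only were left out by the rule. In repeat 1, 569 such peaks had a median of 336 tags beside 252 in the overlapping repeat 2 peak (74 at the lowest), at medians of 87.5-fold and 48.7-fold. In repeat 2, 181 had a median of 320 beside 267 in repeat 1 (108 at the lowest), at 62.0-fold and 70.5-fold. The highest shared peak in repeat 1 that failed was 116 kb beyond Fam43a, with 886 and 129 tags at 44.9-fold and 10.8-fold, followed by one near Dock2 with 584 and 208 and one 511 bp beyond Sfn, the gene of an epithelial 14-3-3 protein, with 584 and 274.

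The highest tag count in repeat 1 was not at a shared peak. A peak of 8840 bp inside Tmem267 held 2745 tags at only 4.48-fold and had no overlapping peak in repeat 2. The other 5 such peaks of repeat 1 held 345 to 705 tags at 3.66-fold to 5.98-fold, among them one 69 bp from the tRNA gene n-TEctc7 and 3 at Gm40363 and Gm40369. The single one of repeat 2, near P4ha2, held 439 tags at 3.47-fold. All 7 are below the 15-fold that all but 4 of the high-tag peaks passed in at least 1 repeat.

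On the X chromosome 6 of 575 shared peaks met the same tag and overlap limits, 10.4 per 1000, beside 24.97 per 1000 on autosomes. They lay near Itgb1bp2 (543 and 519 tags), inside Emd (453 and 362), inside Mid1 (434 and 361), near Usp9x (430 and 342), near Tsx (381 and 348) and inside Mcf2 (349 and 333). The number of X chromosomes in the cells is not in the labels, so this share cannot be compared with that of autosomes per copy.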
